A study of Mus musculus with 12 samples.

Results

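The 9 genes described here, Camk1g, Tecpr1, Synj2bp, Pfkp, Rcan1, Elavl3, Stmn2, Unc13a and Sort1, are known as TDP-43 targets in mouse or human. They were chosen by name, 3 as mouse genes whose transcripts gain cryptic exons when TDP-43 is lost (Camk1g, Tecpr1, Synj2bp), 1 for a regulated cassette exon (Sort1) and 5 as mouse orthologs of human targets (Pfkp, Rcan1, Elavl3, Stmn2, Unc13a). Whether these 5 orthologs are TDP-43 targets in mouse cortex was not tested, and all 9 are called targets here for short. They make up 9 of 36047 genes and 59 of 116816 gene-assigned transcripts in the table. The data are polyA RNA libraries from the cortex of mice, with 3 libraries in each of 4 groups, namely WT and Gde2KO at 4 months and WT and Gde2KO at 19 months. Gde2KO mice lack GDE2 globally, the surface enzyme encoded by Gdpd5, so every cell type of the cortex carries the knockout. Replicate numbers exist for the 4-month columns alone, and the 19-month libraries of each genotype are given the letters A, B and C here. Each library is treated as a separate sample, and the p-values measure the spread between these libraries.

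TDP-43, encoded by Tardbp, is a nuclear RNA-binding protein that binds UG-rich stretches of introns and 3′ UTRs. It keeps unannotated sequences, called cryptic exons, out of mature messages, and it also sets the inclusion of some annotated exons. When it leaves the nucleus, as in amyotrophic lateral sclerosis, its targets can be truncated, degraded or switched between isoforms. Most cryptic exons differ between species, and the human ones in STMN2 and UNC13A are not shared by the mouse genes. A table of annotated transcripts holds no row for a cryptic exon, so the question these data can answer is whether the level of each target or the mix of its annotated isoforms differed between Gde2KO and WT cortex or between the ages.

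The annotated choices that the results turn on are printed here 5′ to 3′, so that the isoforms can be told apart by eye. Sequences and positions are those of GENCODE M21 on GRCm38, where the genes lie at chr1:193346346-193370298 (Camk1g), chr5:144194442-144223615 (Tecpr1), chr12:81497941-81532911 (Synj2bp), chr13:6579768-6648777 (Pfkp), chr16:92391953-92470867 (Rcan1), chr9:22015005-22052023 (Elavl3), chr3:8509360-8561606 (Stmn2), chr8:71624417-71671757 (Unc13a) and chr3:108284082-108361511 (Sort1). In the exons of Sort1, Unc13a and Synj2bp the exon stands in capitals between 12 bases of each neighbouring exon. The Sort1 exon (chr3:108355472-108355570, plus strand) is exon 18 of 21 of Sort1-203, is 99 bases long and lies in the coding sequence in frame. The Unc13a exon (chr8:71633439-71633495, minus strand) is exon 42 of 45 of Unc13a-208, is 57 bases long and is also in frame. The Synj2bp exon (chr12:81510829-81510965, minus strand) is exon 2 of 4 of Synj2bp-203 and is 137 bases long, a length that 3 does not divide. Synj2bp-204 lacks it, and its annotated coding length is 120 bases against 435 in Synj2bp-203.
Sort1 exon: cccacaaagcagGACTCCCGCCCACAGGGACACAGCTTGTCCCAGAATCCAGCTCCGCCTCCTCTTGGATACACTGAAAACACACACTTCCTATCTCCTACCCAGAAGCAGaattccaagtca
Unc13a exon: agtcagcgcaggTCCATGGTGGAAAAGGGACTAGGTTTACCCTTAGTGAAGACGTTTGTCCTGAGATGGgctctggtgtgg
Synj2bp exon: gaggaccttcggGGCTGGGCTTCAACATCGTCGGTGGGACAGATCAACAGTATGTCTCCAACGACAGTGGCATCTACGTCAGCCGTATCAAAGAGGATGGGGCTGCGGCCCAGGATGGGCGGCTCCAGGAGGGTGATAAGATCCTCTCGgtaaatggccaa

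Pfkp has a mutually exclusive pair of coding exons, each 153 bases long and each exon 16 of 22. Pfkp-207 uses the upstream exon (chr13:6597859-6598011, minus strand) and Pfkp-201 the downstream exon (chr13:6593101-6593253, minus strand). The exons are identical at 90 of 153 aligned bases (58.8%), and the bases that differ between them are in capitals.
Pfkp-207 exon: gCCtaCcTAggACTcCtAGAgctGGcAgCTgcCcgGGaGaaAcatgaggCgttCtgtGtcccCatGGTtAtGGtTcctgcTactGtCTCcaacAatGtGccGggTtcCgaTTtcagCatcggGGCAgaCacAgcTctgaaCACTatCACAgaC
Pfkp-201 exon: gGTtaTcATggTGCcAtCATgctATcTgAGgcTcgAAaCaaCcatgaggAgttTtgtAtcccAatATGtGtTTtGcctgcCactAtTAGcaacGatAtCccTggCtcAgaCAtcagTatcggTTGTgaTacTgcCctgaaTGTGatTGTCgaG

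Runs of alternating T and G of 10 bases or more (TGTGTGTGTG or GTGTGTGTGT, on the transcribed strand only) were searched in all annotated transcripts, because UG-rich RNA is what TDP-43 binds. Such a run was found in 10 of the 59 member transcripts (16.9%, median length 1506 bases) and in 5932 of 116728 transcripts in all (5.08%, median length 1035 bases). The member transcripts were also longer in the median, and a run is a match of letters and not a binding site. The longest, 35 bases, lies in exon 2 of the retained-intron transcript Tecpr1-204 (chr5:144218470-144218504, minus strand), and the next, 12 bases, in the 3′ UTR of Unc13a-201. Synj2bp-201, Synj2bp-203 and Synj2bp-204 share a run of 11 bases, and Rcan1-201, Rcan1-202, Rcan1-203 and Rcan1-206 share a run of 10 bases in the 3′ UTR. Tecpr1-212 held the last, also of 10 bases. The run of Tecpr1-204 is in capitals.
Tecpr1-204 run: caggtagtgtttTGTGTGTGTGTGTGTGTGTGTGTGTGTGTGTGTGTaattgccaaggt

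Estimated reads per library ranged from 46434259 to 59728495 at 4 months and from 3707928 to 44604732 at 19 months. WT library A (6734475) and Gde2KO library A (3707928) at 19 months were the shallow ones, and there 1 read counts as 4.66 and 8.29 normalized counts. Gdpd5 was lower in Gde2KO than in WT by 0.85 on the log2 scale at 4 months (adjusted p = 0.463, limma) and by 1.11 at 19 months (adjusted p = 0.0111), with no overlap between the genotypes at either age. The 4-month libraries also differed in markers of brain regions. Summed normalized counts of 6 striatal markers were 3394, 2660 and 41705 in WT libraries 1, 2 and 3 and 22987 to 57418 in Gde2KO. Those of 5 hippocampal markers were 8853, 7270 and 795 in the same WT libraries and 771 to 1151 in Gde2KO. In both sums WT library 3 thus lay inside the Gde2KO range, and WT libraries 1 and 2 lay outside it. At 19 months the striatal sums were 5588 to 8022 in WT and 7233 to 15672 in Gde2KO. The part of these marker differences in the results below was not tested, and in such bulk tissue fewer cells of a type and less RNA per cell cannot be told apart. Summed counts of 6 neuron markers were 174943 to 184993 in WT and 179973 to 249788 in Gde2KO at 4 months, with overlap. Those of 4 endothelial markers did not overlap at that age, at 3219 to 4186 in WT and 4216 to 4551 in Gde2KO. Markers also separated the genotypes at 19 months, where the neuron sums were 195062 to 199704 in WT and 183076 to 191840 in Gde2KO, those of 6 astrocyte markers 89185 to 95759 and 98234 to 106595, and the hippocampal sums 531 to 758 and 831 to 1319. Neuron sums were thus lower, and astrocyte and hippocampal sums higher, in all 3 Gde2KO libraries of that age. The microglia, oligodendrocyte, endothelial, choroid plexus and striatal sums of the genotypes overlapped at 19 months.

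All 9 targets were expressed in every library. On the TPM scale, which takes length into account, the mean level over 12 libraries fell in the order Stmn2 (284 ± 84.0, SD), Pfkp (203 ± 25.4), Sort1 (160 ± 14.0), Unc13a (138 ± 22.6), Elavl3 (101 ± 4.62), Tecpr1 (65.8 ± 9.78), Rcan1 (48.7 ± 7.003), Camk1g (26.2 ± 7.32) and Synj2bp (17.9 ± 1.76). The ranges of neighbours in this order overlapped except between Elavl3 and Tecpr1, and the order of these neighbours is not resolved at this spread.

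**Figure D1:**
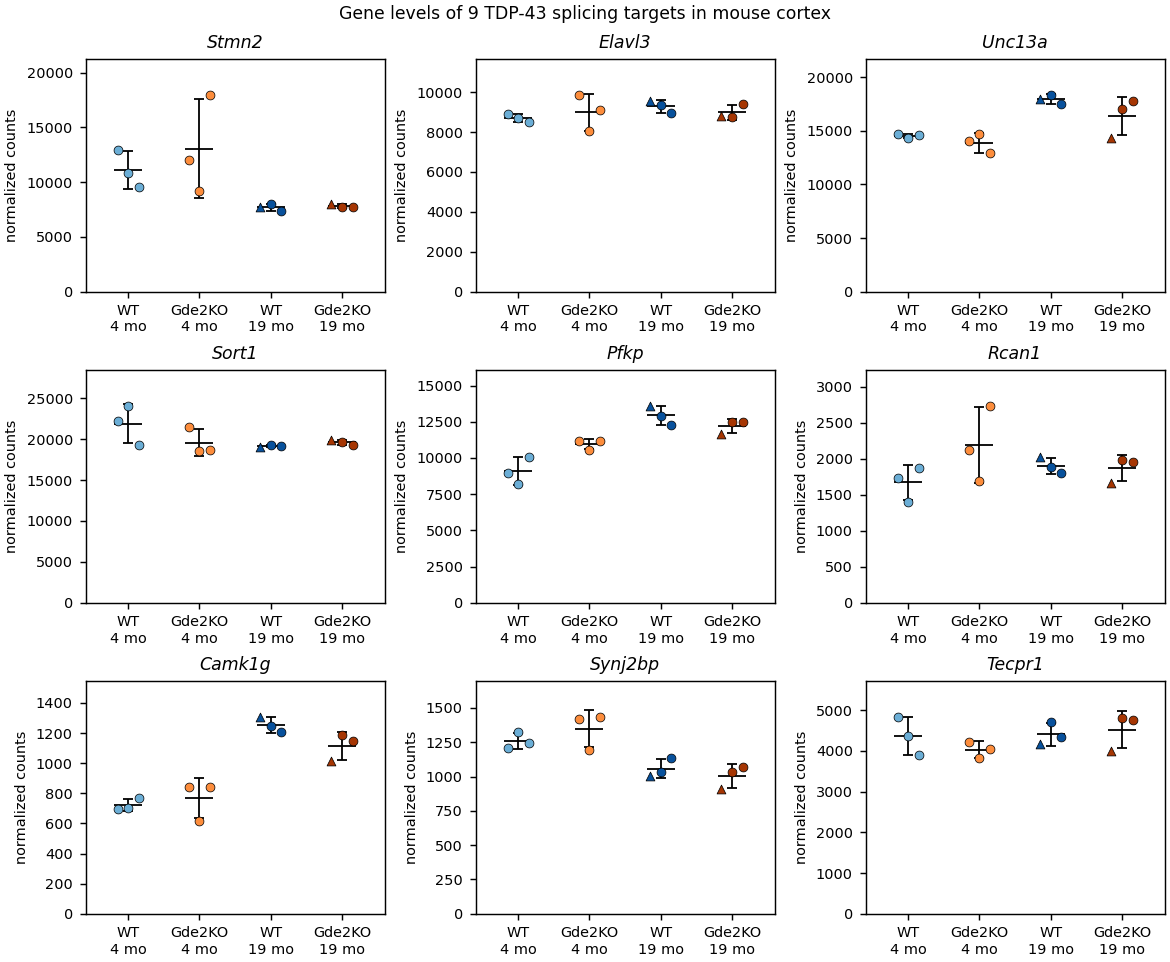
Normalized counts of the 9 targets (y axis, linear from 0) in the 4 groups (x axis). Each dot is 1 library, a triangle marks a shallow library, and bars give mean ± SD (n = 3 libraries). Genotypes overlap in most panels, while Camk1g and Pfkp sit higher and Stmn2 and Synj2bp lower at 19 months.

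Between genotypes, no target differed in level past the threshold at either age. The threshold was an adjusted p under 0.1 with a difference above 0.721 on the log2 scale, from limma fitted to all genes. At 4 months 0 of 9 were called (24 of 19035 genes in all, 0.126%) and at 19 months 0 of 9 (18 of 18583, 0.0969%). An unadjusted p under 0.05 was reached by 0 of 9 targets at either age and by 2025 and 1285 genes in all. The median difference of the 9 targets, Gde2KO minus WT, was 0.07 at 4 months beside 0.11 over all genes, and -0.05 at 19 months beside -0.02. At 19 months the 95% intervals of all 9 lay inside the threshold of 0.721, and at 4 months those of 7, the exceptions being Rcan1 and Stmn2.

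Among the targets with synaptic and axonal roles, Stmn2 encodes stathmin-2, a microtubule regulator of growing axons. Its normalized counts at 4 months were 12957, 10827 and 9540 in WT and 12016, 9162 and 18002 in Gde2KO, a difference of 0.19 (95% interval -0.39 to 0.76, adjusted p = 0.718). The genotypes overlapped widely, and Gde2KO library 3 stood highest. That library also had the largest total normalized count (41229086, the others 30751064 to 35949224) and the largest neuron marker sum (249788), and without it the Stmn2 difference was -0.07. At 19 months Stmn2 was 7694, 7994 and 7389 in WT and 7987, 7694 and 7725 in Gde2KO, and the values lay almost on top of each other (0.02, 95% interval -0.09 to 0.13).

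Unc13a encodes the protein that primes synaptic vesicles for release. Its normalized counts were 14705, 14334 and 14606 in WT and 14075, 14700 and 12889 in Gde2KO at 4 months. At 19 months they were 17983, 18386 and 17538 in WT and 14366, 16993 and 17760 in Gde2KO. The groups overlapped at both ages (-0.07 and -0.14, adjusted p = 0.792 and 0.734), and the lowest 19-month value came from the shallow Gde2KO library A.

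Sort1 encodes sortilin, a sorting receptor that takes up progranulin and binds proneurotrophins. Its level was 22283, 24103 and 19317 in WT and 21516, 18515 and 18680 in Gde2KO at 4 months, then 18999 to 19326 in WT and 19318 to 19954 in Gde2KO at 19 months. The difference was -0.16 (adjusted p = 0.612) and 0.03 (adjusted p = 0.806), and the groups overlapped at both ages. Elavl3, a neuronal RNA-binding protein that acts on splicing and message stability, differed little, at 8483 to 8884 and 8027 to 9878 in WT and Gde2KO at 4 months and 8946 to 9556 and 8756 to 9427 at 19 months (0.04 and -0.05).

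Pfkp, the platelet-type phosphofructokinase of glycolysis, was the target whose genotypes did not overlap at 4 months. Its normalized counts were 8988, 8180 and 10088 in WT and 11144, 10561 and 11142 in Gde2KO. Every Gde2KO library was above every WT library, and the difference was 0.27 (95% interval -0.03 to 0.57, adjusted p = 0.469), so it did not pass. Such a separation was seen for 15.4% of all genes at 4 months, beside 1 of 9 targets. At 19 months Pfkp was 13618, 12933 and 12269 in WT and 11685, 12473 and 12486 in Gde2KO, with overlap and the other sign (-0.08, adjusted p = 0.734).

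Camk1g, a calcium/calmodulin-dependent kinase, was the target that separated at 19 months. Its normalized counts were 1309, 1246 and 1208 in WT and 1012, 1187 and 1145 in Gde2KO. All 3 Gde2KO libraries were below WT (difference -0.17, 95% interval -0.36 to 0.01, adjusted p = 0.712), where 14.2% of all genes separated and 1 of 9 targets did. The neuron marker sum was also below WT in all 3 (183076 to 191840 against 195062 to 199704) and the astrocyte sum above it, and their part in the Camk1g difference was not tested. On gene sums of TPM the sign was reversed (0.076). At 4 months the values were 698, 705 and 771 in WT and 845, 614 and 841 in Gde2KO, and the Gde2KO libraries lay on both sides of WT (0.07, adjusted p = 0.850).

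The remaining targets overlapped at both ages. Rcan1, an inhibitor of the phosphatase calcineurin, was 1736, 1398 and 1870 in WT and 2125, 1685 and 2735 in Gde2KO at 4 months (0.37, 95% interval -0.09 to 0.83, adjusted p = 0.487), the widest interval towards higher values of the 9. Its highest value came again from Gde2KO library 3. Tecpr1, which helps autophagosomes fuse with lysosomes, differed by -0.11 and 0.03 (adjusted p = 0.675 and 0.920), and Synj2bp, a mitochondrial outer-membrane protein with a PDZ domain, by 0.10 and -0.08 (adjusted p = 0.722 and 0.816). Tardbp itself was 6857, 6667 and 6770 in WT and 5938, 6120 and 6514 in Gde2KO at 19 months. All 3 Gde2KO libraries were lower, and the difference of -0.13 did not pass (adjusted p = 0.711). On the TPM scale its mean was higher in Gde2KO (146 ± 12.5) than in WT (139 ± 13.1, SD, n = 3), and the libraries overlapped.

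**Figure D2:**
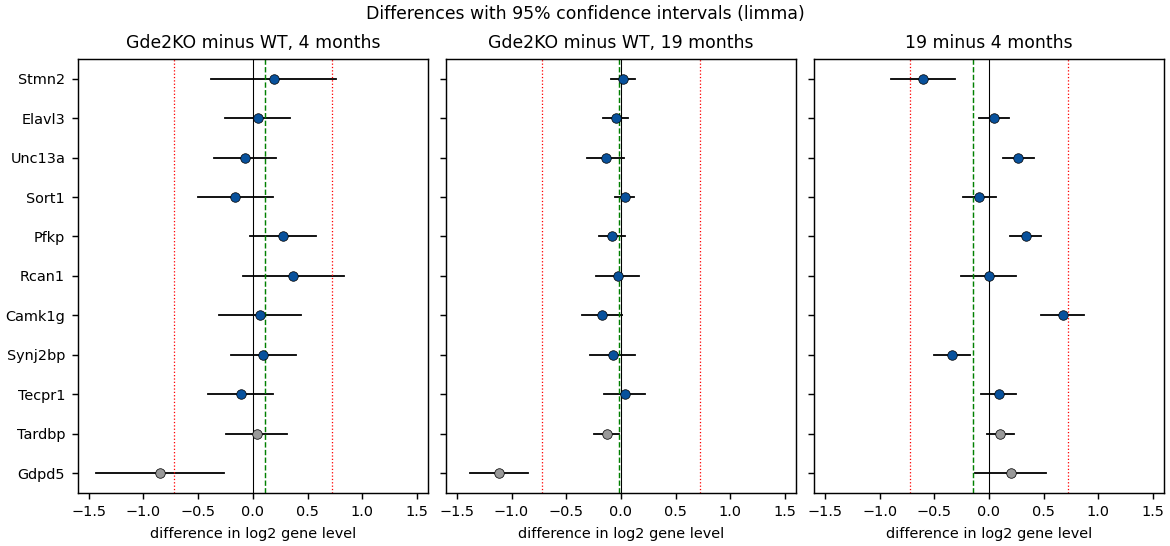
Log2 difference (x axis) of each target with its 95% interval in 3 panels, Gde2KO minus WT at 4 months, the same at 19 months, and 19 minus 4 months. Red dotted lines mark 0.721 on either side, the green dashed line is the median of all genes, and Tardbp and Gdpd5 are in grey. The genotype intervals of the 9 targets cover 0 at both ages, while 5 of 9 age intervals do not.

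The interaction of genotype and age asks whether the genotype difference changed between the ages, and 0 of 9 targets were called (9 of 18731 genes, 0.048%, at the adjusted p alone). Pfkp reached an unadjusted p of 0.0172 with an interaction of -0.36 (adjusted p = 0.368), beside 2408 genes in all with an unadjusted p under 0.05. Its genotype difference was positive at 4 months and negative at 19 months. Without WT library 3 of 4 months the adjusted p was 0.0443, but then 2029 of 18522 genes (11%) were called for the interaction in place of 9, so the background moved with that 1 library as well. It was also the WT library of that age whose striatal and hippocampal marker sums lay inside the Gde2KO ranges, and the part of this was not tested. Rcan1 had an interaction of -0.40 (adjusted p = 0.445), and the median of the 9 targets was -0.17 beside -0.15 over all genes.

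The ages were compared next. Between all 6 libraries of 19 months and all 6 of 4 months, 5 of 9 targets had an adjusted p under 0.1 (limma, 47.3% of all genes), with Camk1g, Pfkp and Unc13a higher and Stmn2 and Synj2bp lower at 19 months. The share of targets is thus near that of all genes, and 0 of 9 passed the size threshold as well (2623 of 18731 genes, 14.0%). The median of all genes was -0.15 in this comparison and -0.04 after median-of-ratios scaling, so each difference is also given relative to the all-gene median. The 19-month libraries had lower total TPM (887748 to 929745) than the 4-month libraries (1003570 to 1472299), and the part of this was not tested. Age and any batch in which the libraries were made cannot be told apart.

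Camk1g was 614 to 845 in the 6 libraries of 4 months (median 738) and 1012 to 1309 in those of 19 months (median 1197). The ages did not overlap, and the level was higher at 19 months by 0.67 (SE 0.09, 95% interval 0.48 to 0.87, adjusted p = 0.00038, 0.82 relative to all genes), a fold of 1.59. In WT libraries alone the difference was 0.79 and passed the size threshold as well (adjusted p = 0.0026, 2565 of 18731 genes called, 13.7%), and in Gde2KO alone it was 0.55 (adjusted p = 0.0153). The difference between these values is the interaction above, which did not pass for Camk1g (-0.24, adjusted p = 0.532).

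Stmn2 went the other way, with 9162 to 18002 normalized counts in the 4-month libraries (median 11422) and 7389 to 7994 in the 19-month libraries (median 7710). Every 19-month library was below every 4-month library, and the difference was -0.60 (SE 0.14, adjusted p = 0.0058, -0.46 relative to all genes). Pfkp ranged from 8180 to 11144 in the 4-month libraries (median 10324) and from 11685 to 13618 in the 19-month libraries (median 12480), again without overlap. It rose by 0.34 (SE 0.06, adjusted p = 0.0027, 0.48 relative to all genes). In WT alone its difference was 0.51 (adjusted p = 0.0044) and in Gde2KO alone 0.16 (adjusted p = 0.224).

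Synj2bp was 1196 to 1436 in the 4-month libraries (median 1284) and 907 to 1136 in the 19-month libraries (median 1031). It fell by 0.34 without overlap (SE 0.07, adjusted p = 0.0052, -0.19 relative to all genes). Unc13a was 12889 to 14705 in the 4-month libraries (median 14470) and 14366 to 18386 in the 19-month libraries (median 17649), and rose by 0.27 (SE 0.07, adjusted p = 0.0093, 0.41 relative to all genes). The 19-month value inside the 4-month range was that of the shallow Gde2KO library A. The ages did not overlap for 4 of 9 targets, beside 19.2% of all genes. The age differences of Sort1 (-0.09), Tecpr1 (0.09), Elavl3 (0.05) and Rcan1 (0.00) did not pass (adjusted p from 0.324 to 0.989).

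Isoform use was then compared as each transcript's share of its gene's TPM. Stmn2-201 made up 98.7% to 99.4% of Stmn2 in the group means, Elavl3-201 90.7% to 93.4%, Rcan1-202 89.4% to 91.8% and Sort1-201 78.4% to 81.7%, so each of these genes was read mostly through 1 isoform. Unc13a, Pfkp, Synj2bp and Tecpr1 were mixed. Of the 59 transcripts 27 are annotated as protein coding, 25 as retained intron, 4 as targets of nonsense-mediated decay and 3 as processed transcripts.

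**Figure D3:**
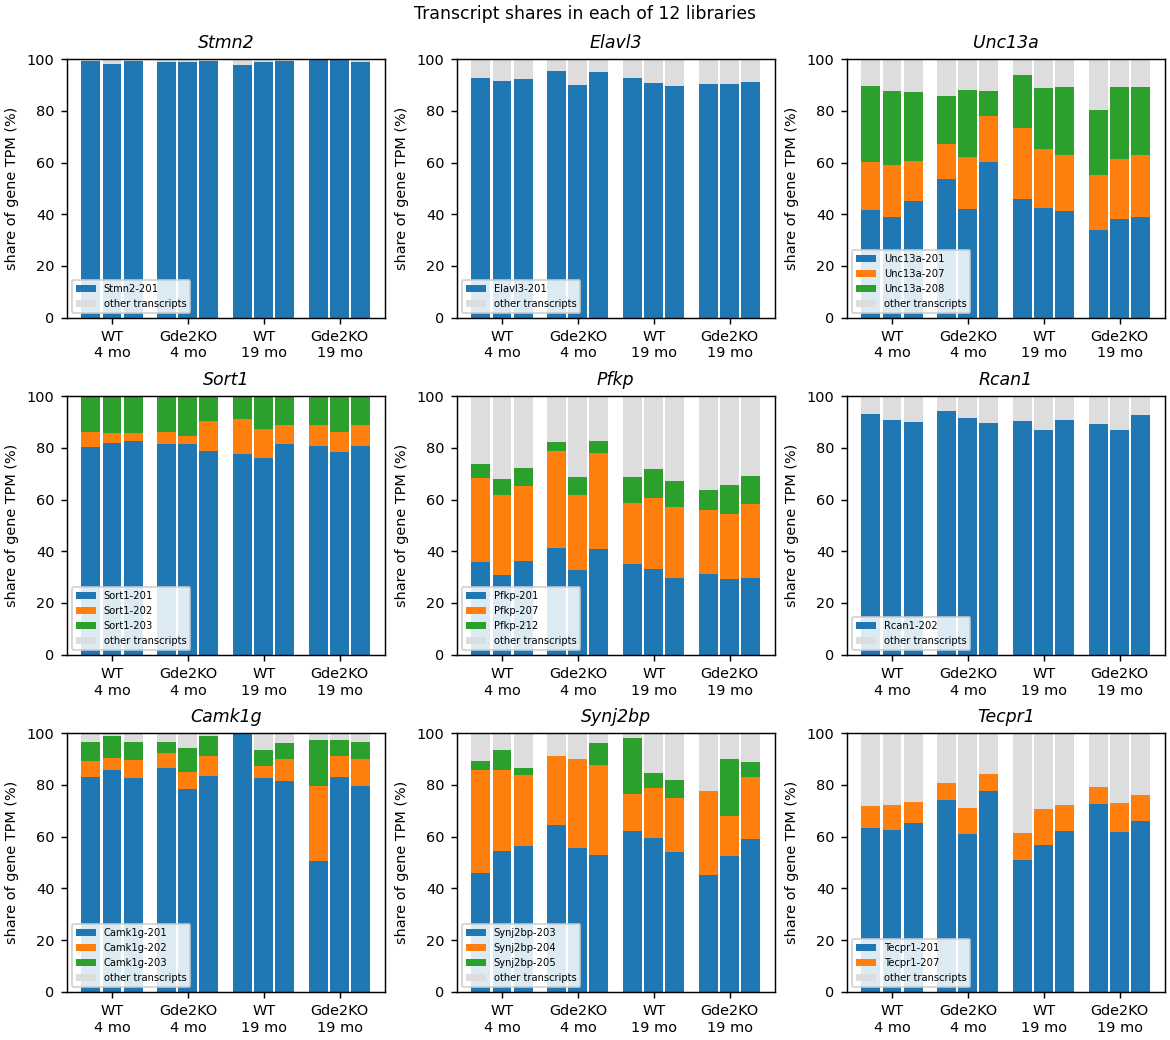
Share of each transcript in its gene's TPM (y axis, percent) as stacked bars for the 9 targets in 12 libraries (x axis), with transcripts of a mean share below 10% in every group pooled. Stmn2, Elavl3 and Rcan1 are dominated by 1 transcript in each library, and the shallow libraries A of 19 months stand apart most for Camk1g.

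No target changed its isoform use between genotypes past the threshold, which was an adjusted p under 0.1 from limma's diffSplice with a shift of over 10 points in the mean share of at least 1 of its transcripts. At 4 months 0 of 9 were called (142 of 12235 genes, 1.16%), at 19 months 0 of 9 (24 of 12253, 0.196%) and for the interaction 0 of 9 (234 of 12304, 1.9%). An unadjusted p under 0.05 was reached by 0, 1 and 1 of the 9, in each case Unc13a, beside 13.8%, 6.21% and 9.44% of all genes. Of 20 transcripts with a mean share of 10% or more in a group, 1 separated the genotypes at 4 months and 1 at 19 months, both of Unc13a, beside 15.6% and 12% of 56755 transcripts.

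Unc13a-208, which holds the 57-base exon, took 29.4%, 28.5% and 26.6% of Unc13a TPM in WT at 4 months and 18.7%, 25.9% and 9.47% in Gde2KO. All Gde2KO libraries were below WT and the Gde2KO libraries were spread widely (difference -10.1 points, exact permutation p = 0.1, the smallest that 3 against 3 libraries allow). The gene's adjusted p was 0.601 with diffSplice. At 19 months the same transcript did not separate (23.4% ± 3.11 and 26.4% ± 1.55, SD, n = 3), while Unc13a-201 was 45.9%, 42.4% and 41.2% in WT and 33.7%, 38.0% and 39.0% in Gde2KO (difference -6.24 points, exact p = 0.1, gene adjusted p = 0.744). The interaction of Unc13a use had an unadjusted p of 0.0122 (adjusted p = 0.292), with Unc13a-201 shifting by -16.1 points between the ages' genotype differences. The short coding transcript Unc13a-205, of 761 bases, was the one with an adjusted p under 0.1 in this interaction (0.0346, diffSplice by transcript). No share of all transcripts that passed this test is given beside it. Its mean shares were small, 1.98% and 1.24% in WT and Gde2KO at 4 months and 0.986% and 3.73% at 19 months. The 19-month libraries A, B and C held 0%, 1.69% and 1.27% in WT and 6.16%, 2.40% and 2.62% in Gde2KO. Both extremes thus came from the shallow libraries A, in opposite directions.

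For Camk1g the shares in the shallow libraries stood apart, in opposite directions. Camk1g-201 was 100%, 82.5% and 81.7% in WT and 50.7%, 82.9% and 79.5% in Gde2KO at 19 months, a mean difference of -17.0 points that came from both libraries A (adjusted p = 0.947). Gde2KO library A held 122 estimated reads of Camk1g and WT library A 281, against 1468 to 1690 in the others of that age. The deeper libraries differed little. Tecpr1-201 was 56.6% ± 5.76 in WT and 66.8% ± 5.53 in Gde2KO at 19 months (SD, n = 3), a difference of 10.2 points whose groups overlapped (adjusted p = 0.901, limma).

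The 7 annotated exon choices of the targets were derived from the transcript values, as the percentage of TPM of transcripts with the exon among those with or without it. Each of the 7 was compared 3 times, giving 21 comparisons whose exact permutation p-values are unadjusted. Sort1 comes first because its 99-base exon, printed above, is known to be included more often when TDP-43 is lost. The exon was present in 14.5%, 14.8% and 14.5% of WT at 4 months and 14.7%, 15.9% and 10.95% of Gde2KO. At 19 months it was 10.3%, 14.4% and 11.9% in WT and 12.1%, 15.1% and 12.2% in Gde2KO. The genotypes overlapped at both ages (-0.80 and 0.98 points, exact p = 0.9 and 0.5).

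The Unc13a exon was included in 41.3%, 42.2% and 37.1% of WT and 25.8%, 38.2% and 13.6% of Gde2KO at 4 months, with overlap (-14.3 points, exact p = 0.2). At 19 months inclusion was 30.7%, 35.6% and 39.2% in WT and 42.6%, 42.5% and 39.9% in Gde2KO, so that all Gde2KO libraries were above WT by 6.52 points in the mean (exact p = 0.1, the smallest possible). No share over all exon choices is given here. Among transcript shares, 12% of 56755 separated the genotypes at 19 months. Without both shallow libraries the difference was 3.81 points and still without overlap. The sign thus differed between the ages, and the spread among Gde2KO libraries at 4 months was larger than any group difference at 19 months.

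The Pfkp pair was used about equally, the upstream exon, carried by Pfkp-207 and Pfkp-203, being 51.1% ± 2.68 in WT and 50.3% ± 1.604 in Gde2KO at 4 months (SD, n = 3). At 19 months it was 45.9%, 51.1% and 51.7% in WT and 53.7%, 53.1% and 54.6% in Gde2KO, again without overlap (4.25 points, exact p = 0.1), beside the same 12% of transcript shares. Without the shallow libraries the difference was 2.47 points, and on normalized counts in place of TPM the groups overlapped (2.39 points, exact p = 0.5). The Camk1g exon of 428 bases was present in 92.8% to 100% of every library.

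**Figure D4:**
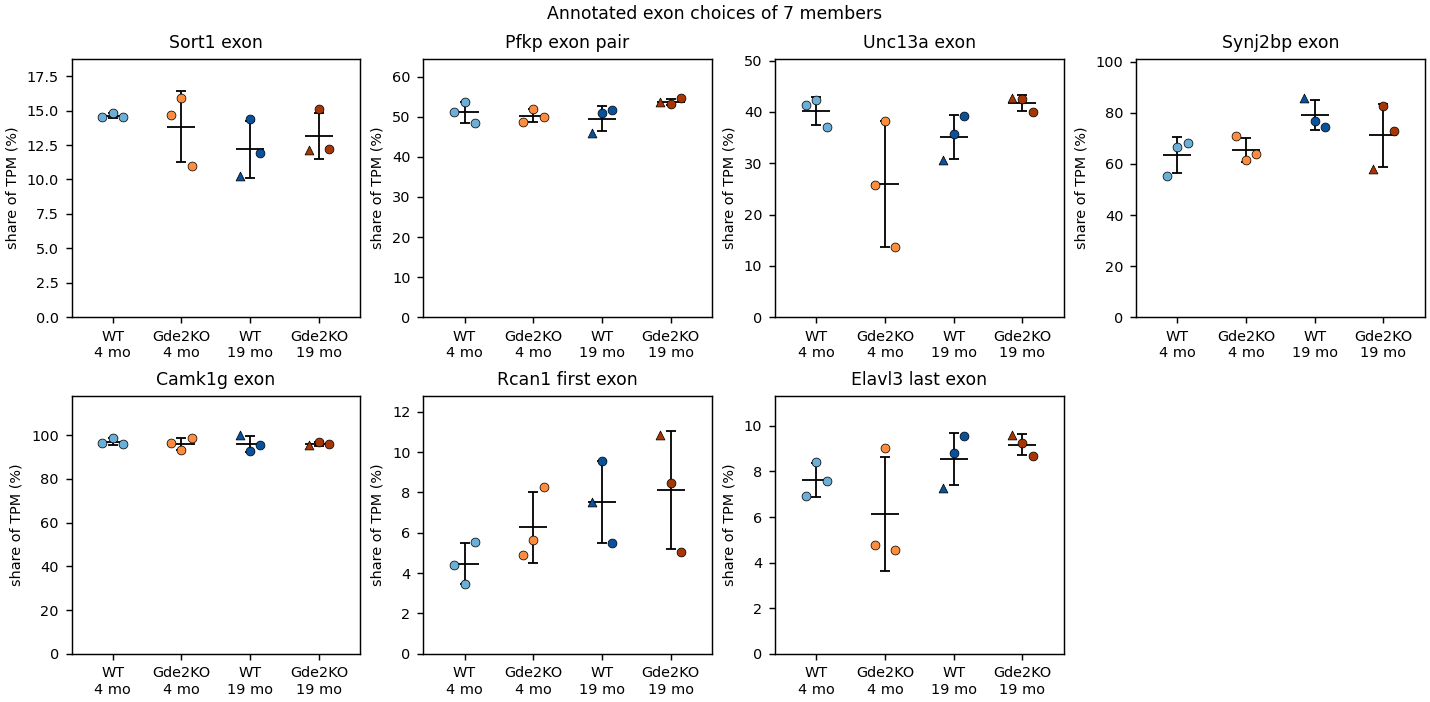
Percentage of TPM with the named exon or end (y axis, from 0) for 7 annotated choices in the 4 groups (x axis). Dots are libraries, triangles shallow libraries, and bars give mean ± SD (n = 3). Unc13a inclusion reaches 13.6% to 42.2% at 4 months and 30.7% to 42.6% at 19 months, and Sort1 inclusion stays between 10.3% and 15.9%.

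Between ages the usage call was again made for 0 of 9 targets (516 of 12304 genes, 4.19%), and 3 of 9 had an adjusted p under 0.1 with smaller shifts (12.5% of all genes). These were Sort1 (adjusted p = 0.0205, largest shift 4.00 points), Stmn2 (0.0653, 0.163 points) and Elavl3 (0.0904, 1.98 points), by diffSplice. For Elavl3 the short form Elavl3-203 took 6.85% ± 1.83 at 4 months and 8.83% ± 0.840 at 19 months (SD, n = 6). Each of the 3 exceeded an adjusted p of 0.1 under some alternative, up to 0.469 for Sort1, 0.307 for Stmn2 and 0.783 for Elavl3. Of the 20 transcripts above, 3 separated the ages, beside 4.49% of the 56755 transcripts, which were kept by counts and not by share. Pfkp-207 was 28.7% to 37.2% at 4 months and 23.4% to 28.6% at 19 months, without overlap. The retained-intron transcripts Pfkp-212 (5.64% ± 1.29 to 10.1% ± 1.20) and Unc13a-207 (17.7% ± 2.62 to 23.5% ± 2.21) rose. Pfkp-212 met the 10% limit only in WT at 19 months (10.4%). Its mean was 9.90% in Gde2KO at 19 months, and 6.06% and 5.21% in WT and Gde2KO at 4 months. It was thus listed through the age in which it was high, so its separation of the ages is no independent support. The exact p was 0.0021645 for each, the smallest that 6 against 6 libraries allow, and is not adjusted over the 20 transcripts. By diffSplice, the usage of neither gene passed between ages (adjusted p = 0.393 for Pfkp and 0.904 for Unc13a).

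The Synj2bp exon was included in 55.4% to 70.8% of transcripts in the 4-month libraries (median 65.4%) and in 58.0% to 85.6% in the 19-month libraries (median 75.7%). The mean was higher by 10.6 points (exact p = 0.0433) although the ages overlapped through Gde2KO library A, the shallowest. Without the shallow libraries the ages did not overlap (12.3 points, exact p = 0.0095), and leaving out each library in turn gave an exact p between 0.0043 and 0.0866. The form without the exon, Synj2bp-204, with its short annotated coding sequence, took 32.4% ± 4.99 at 4 months and 21.1% ± 6.65 at 19 months (SD, n = 6, exact p = 0.0108), while the gene's diffSplice adjusted p was 0.619. The last exon of Elavl3-203 was used in 6.88% and 8.86% (exact p = 0.0346, 0.0130 to 0.0693 without 1 library), and the first exon of Rcan1-201 in 5.37% and 7.82% (exact p = 0.0649), at 4 and 19 months.

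Retained-intron transcripts took a larger part of 3 targets at 19 months. Their summed share was 22.7% ± 6.37 and 31.8% ± 2.58 for Pfkp (exact p = 0.00649), 22.7% and 28.4% for Unc13a (exact p = 0.00433) and 5.38% and 9.39% for Sort1 (exact p = 0.0411), at 4 and 19 months. The diffSplice adjusted p of usage between ages was 0.393 for Pfkp, 0.904 for Unc13a and 0.0205 for Sort1. Of the 7 targets with such a transcript 3 had an unadjusted p under 0.05 with the higher share at 19 months, beside 21.0% of 7913 genes. The share was higher at 19 months for 6 of 7 targets and 63.8% of these genes, with a median difference of 3.93 points for the targets and 0.934 for the genes. By diffSplice's test of single transcripts, Sort1-202 (adjusted p = 0.0175) and Tecpr1-209 (0.95% ± 0.758 and 2.31% ± 1.22, adjusted p = 0.0343), both with retained introns, passed between ages. The share of all transcripts that passed this test is not given here, so these have no background beside them.

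**Figure D5:**
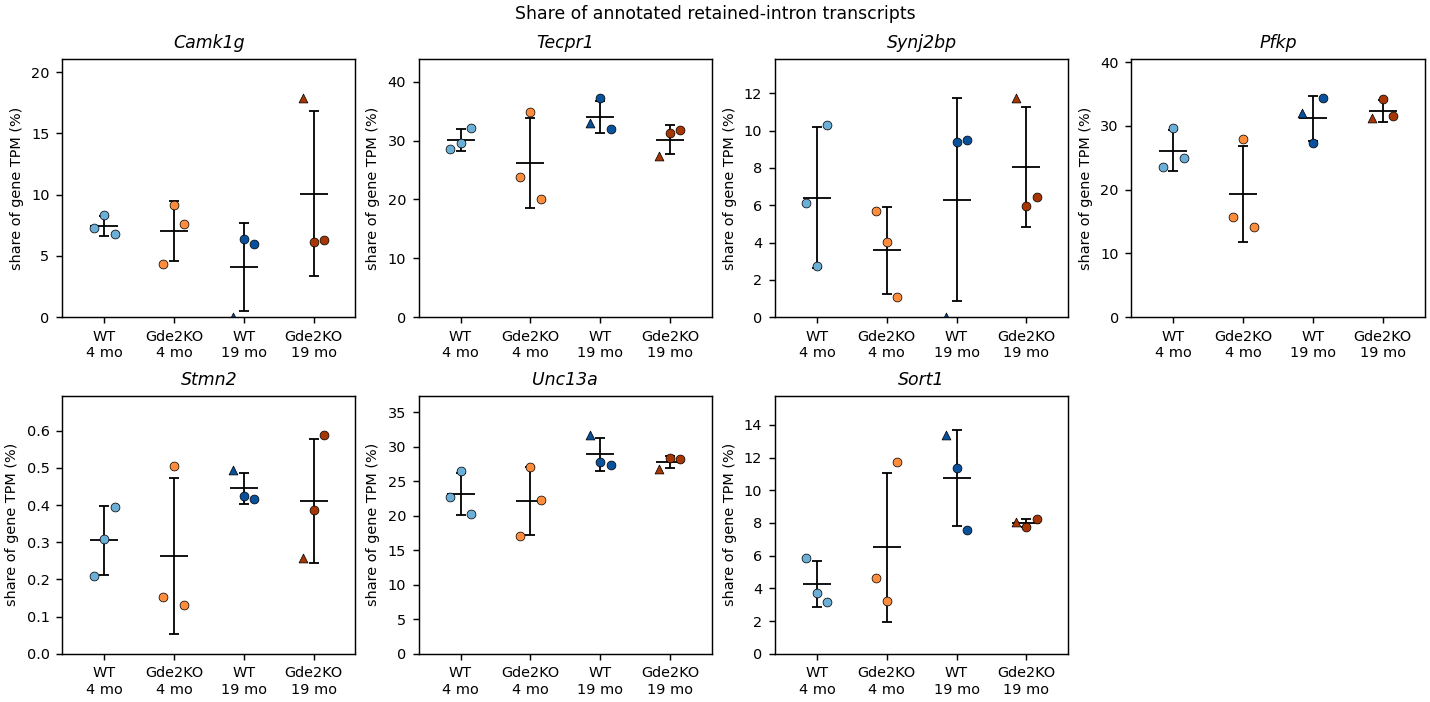
Summed share of retained-intron transcripts in gene TPM (y axis, percent) for the 7 targets with such a transcript in the 4 groups (x axis). Dots are libraries, triangles shallow libraries, and bars give mean ± SD (n = 3). Pfkp, Unc13a and Sort1 sit higher at 19 months, and the Tecpr1 libraries of the genotypes do not overlap at that age.

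Between genotypes the retained-intron share separated for 0 of 7 targets at 4 months and 1 of 7 at 19 months, beside 14.1% and 11.7% of the 7913 genes. The 1 was Tecpr1, at 34.0% ± 2.75 in WT and 30.1% ± 2.45 in Gde2KO (difference -3.91 points, exact p = 0.1, SD, n = 3). Within it, Tecpr1-204 carries the 35-base run printed above. Its share was 5.39%, 3.43% and 3.98% in WT and 0%, 1.503% and 2.63% in Gde2KO, so all Gde2KO libraries were lower, and the 0 came from the shallow library A. At 4 months it was 3.83% ± 0.502 and 3.86% ± 1.75 with overlap (exact p = 1). Tecpr1-204 lies below the 10% limit and was singled out after its values had been seen.

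As a description of how the levels varied, the genes with the most similar profile over the 12 libraries, after removal of each age's mean, were named for each target. Stmn2 was closest to Park7 and Tmem9 (Pearson r = 0.99 and 0.98), Rcan1 to Cox6a1 (0.98) and Pfkp to Tmem41a and Ttl (0.97 and 0.96). Unc13a was closest to Gm15807 and AC154486.3, Sort1 to Slc5a1 and Bri3bp, Elavl3 to Npepps and Wdr66, Synj2bp to Hexim1 and Wdr43, Camk1g to Mcm4 and Irf4, and Tecpr1 to Gigyf2 and Cog1 (r from 0.92 to 0.96). These points share libraries and scaling, and the high value of Gde2KO library 3 weighs on the Stmn2 and Rcan1 profiles.

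Other mouse genes known as TDP-43 targets were read in the same fits. Of 17 further genes with cryptic exons, 12 with regulated annotated exons and 10 with long introns (9 of these measured), 0 were called in level between genotypes at either age. Between ages 1 was called, Efna5, an ephrin ligand with long introns, which rose by 0.96 (adjusted p = 0.0157). That is 1 of 9 long-intron genes and 0 of 17 and 0 of 12 in the other lists, beside 14.0% of all genes. In isoform use at 4 months Dnajc5, a synaptic vesicle chaperone, was called (12.4 points, adjusted p = 0.0150). It was 1 of 12 genes with regulated exons, beside 0 of 15 and 0 of 8 in the other lists and 1.16% of all genes. For the interaction Kalrn, a signalling protein of dendritic spines, was called (-11.7 points, adjusted p = 0.0254), 1 of 16 cryptic exon genes beside 1.9% of all genes. Between ages it was Hgsnat, a lysosomal acetyltransferase (11.4 points, adjusted p = 0.0231), 1 of 16 beside 4.19%. The other lists had 0 of 12 and 0 of 8 in both of these comparisons. The part of TDP-43 in these calls was not tested. At 4 months 7 of 15 cryptic exon genes tested for usage had an unadjusted p under 0.05, beside 3 of 12 and 0 of 8 in the other lists and 13.8% of all genes. An adjusted p under 0.1 was reached by 3 of the 15, with smaller shifts, and by 1 of 12 and 0 of 8. The share of all genes at this adjusted p alone is not given here, so these counts have no background beside them. At 19 months 0 of 16, 0 of 11 and 0 of 8 were called, and 1, 0 and 0 had an adjusted p under 0.1. An unadjusted p under 0.05 was reached by 2, 0 and 2, beside 6.21% of all genes.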

How the data were processed

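PolyA RNA of mouse cortex was sequenced in 12 libraries, and groups were taken from the sample labels. Adapters were trimmed with Trimmomatic 0.36, per the submitters' processing notes, which also name bcl2fastq 2.17 and STAR 2.5.2b. The authors deposited signal values per transcript from kallisto and sleuth on GRCm38, estimated counts divided by a library size factor (here normalized counts) and TPM scaled in the same way. Whole reads (tolerance 0.01) were recovered for 46.98% to 62.9% of genes above 0, and no count model was used. The alignments of reads to introns were not used here.

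Gene levels are sums over transcripts. Levels were log2-transformed after adding 0.5 and tested with limma 3.58.1 (R 4.3.3), letting the variance prior follow the mean level, for genes with 5 or more in at least 47% of libraries, within each age and over all 12 libraries. Calls needed a Benjamini-Hochberg adjusted p under 0.1 and a natural-log difference above 0.5 (0.721 in log2), and for the interaction the adjusted p alone. Usage was tested with diffSplice, with the same trend, on transcripts with a mean of 5 or more. All tests are two-sided. Shares of single isoforms were compared with exact permutation tests, with depths per library as given above. The transcripts named have a mean share of 10% or more in a group or passed diffSplice's transcript test. Elavl3-203, Rcan1-201 and Pfkp-203, outside this rule, are named for exon choices, and others for a run of T and G. The shares of Elavl3-203 and Tecpr1-204 were chosen after their values had been seen. The members and lists were chosen with earlier results of these data known. The 4-month replicate numbers were checked for pairing, and the deviations of same-numbered libraries had correlations of 0.04, -0.03 and -0.05, so they were not treated as pairs. Alternatives were other pseudocounts, scalings, filters, tests, a replicate block and left-out libraries. The share comparisons without the shallow libraries, on normalized counts or without single libraries, and the age comparison in each genotype alone, were added after the data had been seen. The statistics were tested on simulated data. One gene with a profile similar to that of a target is not reported here.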

Additional observations from a re-analysis of the deposited data

How the results depend on the processing

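The count of targets called was 0 of 9 in each of the 8 comparisons and stayed 0 under 68 of 74 alternatives that did not leave out a single library. It became 1 in level between ages with gene sums of TPM, with median-of-ratios scaling and in WT alone (1 each, Camk1g), in the interaction of usage with the Simes test of diffSplice (1, Unc13a, adjusted p = 0.0428), and in usage between ages with a transcript mean of 20 or more and without the low-depth libraries (1 each, Synj2bp, adjusted p = 0.0574 and 0.0989). Leaving out 1 library at a time gave 0 to 1 called for the level interaction (Pfkp without WT library 3 of 4 months), for usage at 4 months (Unc13a without Gde2KO library 2, adjusted p = 0.0314) and for the usage interaction (Elavl3 without that library, adjusted p = 0.0270, and Unc13a without WT library B of 19 months, 0.0549), and 0 to 0 for the others. Small differences that did not pass changed sign. With median-of-ratios scaling these were Camk1g (-0.030), Synj2bp (-2.9e-05) and Elavl3 (-0.053) at 4 months, Elavl3 (0.031) and Unc13a (0.051) in the interaction, and Rcan1 (0.10) and Sort1 (0.014) between ages. With gene sums of TPM they were Synj2bp (-0.034) and Elavl3 (-0.016) at 4 months, Camk1g (0.076) and Tecpr1 (-0.18) at 19 months, Camk1g (0.051), Synj2bp (0.0088) and Unc13a (0.21) in the interaction, and Rcan1 (0.015) between ages. Without the low-depth libraries they were Rcan1 at 19 months (0.10) and between ages (0.016) and Unc13a in the interaction (0.021). With each library left out in turn, ranges crossing 0 were -0.011 to 0.22 (Camk1g), -0.026 to 0.12 (Elavl3) and -0.071 to 0.42 (Stmn2) at 4 months, -0.014 to 0.12 (Tecpr1), -0.074 to 0.055 (Rcan1) and -0.0077 to 0.049 (Stmn2) at 19 months, -0.40 to 0.092 (Stmn2) and -0.13 to 0.021 (Unc13a) in the interaction, and -0.088 to 0.086 (Rcan1) between ages. The cause was not tested. The 5 age differences in level kept their sign and an adjusted p under 0.1 in all of these alternatives fitted to both genotypes. The Synj2bp and Elavl3 exon choices lost an exact p under 0.05 in 9 and 7 of 12 fits that left out 1 library.

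The replicate block of 4 months called 0 of 9 targets in every comparison, and turned the age differences of Tecpr1 (-0.023) and Elavl3 (-0.036), with the same 0 calls. Over all genes it gave 518 calls in the level interaction in place of 9, and 111 in usage between ages in place of 516. No paired analysis was possible at 19 months because the columns carry no replicate number. Over all genes, leaving out WT library 3 of 4 months gave 1510 level calls at 4 months in place of 24, and leaving out Gde2KO library 2 gave 771 usage calls in place of 142. Limma on logit shares called 24, 0, 18 and 625 genes at 4 months, at 19 months, for the interaction and between ages, in place of 142, 24, 234 and 516. With 3 libraries per group an exact p cannot go below 0.1, and the shallow 19-month libraries limit shares of weakly expressed genes such as Camk1g. Cryptic exons are not rows of the transcript table and were not measured here.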
